A study of Mus musculus with 12 samples.

Results

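Selenbp1 and Selenbp2 are paralogous mouse genes for selenium-binding proteins, and they were described here as a pair, 2 of the 35968 genes with a quantified transcript. They were chosen by gene symbol after their levels in these same mice had been seen, and all 4 groups entered that choice, so their levels and differences are given as a description, with no test. Both passed the filter on low counts, which kept 14661 genes for testing.

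Liver RNA was sequenced from 12 adult male C57Bl/6J mice, 3 in each of 4 diet groups, after 7 days of feeding. Per the study's methods, the mice were single housed, received deuterium-labeled water and had no food for 4 h before euthanasia. The groups were a regular-fat control diet (RF.Ctrl), a regular-fat diet restricted in sulfur amino acids (RF.SAAR), a high-fat control diet (HF.Ctrl) and a high-fat restricted diet (HF.SAAR). All 4 diets lacked cysteine, and the SAAR diets also held less methionine, balanced with glutamic acid. The study compared liver mRNA, protein abundance and protein synthesis rates under restriction on each fat background, and only its mRNA values are used here. It reported a poor correlation of protein changes with mRNA changes.

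Selenbp1 is methanethiol oxidase, an enzyme that converts methanethiol, a volatile thiol made from methionine, to formaldehyde, hydrogen peroxide and hydrogen sulfide. Selenbp2 was described in mouse liver as a protein that binds reactive metabolites of acetaminophen, and its mRNA is known as more abundant in male than in female liver. Both proteins bind selenium, but neither contains selenocysteine, so they are not selenoproteins.

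The genes lie on the plus strand of chromosome 3 (GRCm38), Selenbp2 (ENSMUSG00000068877) at chr3:94693556-94704413 and Selenbp1 (ENSMUSG00000068874) at chr3:94933056-94944758, with 228642 bases between them. The main mRNA of each had 12 exons, 1712 bases for Selenbp1 and 1719 bases for Selenbp2, and 98.54% of the paired bases were the same. The coding sequences were both 1419 bases long and differed at 18 positions. Their translations of 472 residues differed at 12 residues (97.46% identity).

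The coding sequence is shown where the paralogs differed most, because only such positions let a read be assigned to 1 gene. This 60-base window of exon 5 lay at chr3:94937984-94938043 in Selenbp1 and at chr3:94698072-94698131 in Selenbp2, taken from the GENCODE transcripts, and capitals mark the 4 differing bases.
Selenbp1: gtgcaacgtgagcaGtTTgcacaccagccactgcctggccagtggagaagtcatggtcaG
Selenbp2: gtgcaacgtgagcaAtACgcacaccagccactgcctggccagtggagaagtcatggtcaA

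The opposite case was a run of 193 identical coding bases in exons 7 to 9, which spanned chr3:94940226-94942737 in Selenbp1 and chr3:94700116-94702593 in Selenbp2 with the introns in between. A single read of 150 bases, the length used in the study, fits inside this run at 44 start positions and by itself then matches both genes equally.
Both genes: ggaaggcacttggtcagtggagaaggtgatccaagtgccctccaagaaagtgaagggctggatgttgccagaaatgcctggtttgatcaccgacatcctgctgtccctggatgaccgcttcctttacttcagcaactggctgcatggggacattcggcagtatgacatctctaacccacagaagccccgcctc

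Similarity extended upstream of the genes. The stretch before the annotated start aligned over 209 bases for Selenbp1 (chr3:94932847-94933055) and 221 bases for Selenbp2 (chr3:94693335-94693555), with 7 mismatches and 12 gap positions. These promoter sequences are from RefSeq (GRCm38.p6) and are shown so that the upstream sequence of each paralog can be read beside its mRNA levels. Capitals mark mismatched bases and bases present in 1 gene only.
Selenbp1: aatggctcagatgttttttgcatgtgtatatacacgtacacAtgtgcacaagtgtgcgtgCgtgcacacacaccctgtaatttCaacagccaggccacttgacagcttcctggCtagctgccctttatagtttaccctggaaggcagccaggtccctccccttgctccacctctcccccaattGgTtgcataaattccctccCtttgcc
Selenbp2: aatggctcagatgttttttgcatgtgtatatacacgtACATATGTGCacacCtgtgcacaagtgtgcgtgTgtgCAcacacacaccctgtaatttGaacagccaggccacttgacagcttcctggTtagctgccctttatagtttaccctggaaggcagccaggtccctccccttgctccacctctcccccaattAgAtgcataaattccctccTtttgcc

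Motifs were counted on both strands of the 300-base RefSeq windows, from 250 bases before to 50 bases after the start. Neither window held TTCNNNGAA, the motif of STAT5, which 8.30% of 32851 promoters held. Neither held the antioxidant response element TGACNNNGC (12.4% of promoters) or the C/EBP-ATF response element TGATGNAA (3.97%). TATAAA occurred once in each window, on the minus strand, and 13.6% of promoters held it. CCAAT occurred 2 times in Selenbp1 and 1 time in Selenbp2, and 37.4% of promoters held it. These counts describe letters in short windows and say nothing about binding.

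The authors assigned reads with kallisto, which compares short words of the read with the transcripts and divides reads that match several transcripts by likelihood. Of the 1682 words of 31 bases (31-mers) in the main Selenbp1 mRNA, 551 (32.8%) occurred in Selenbp1 alone, and of the 1689 in the main Selenbp2 mRNA, 558 (33.0%) occurred in Selenbp2 alone. Every other 31-mer was shared between the paralogs, and 0 were shared with any other annotated gene. A window of 150 bases held at least 1 gene-specific 31-mer at 93.0% of positions in Selenbp1 and 93.1% in Selenbp2. A read inside any other window matches both genes by itself, and kallisto divides the read pair where the mate holds no gene-specific 31-mer either. The deposited values do not give the uncertainty of that division.

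**Figure D1:**
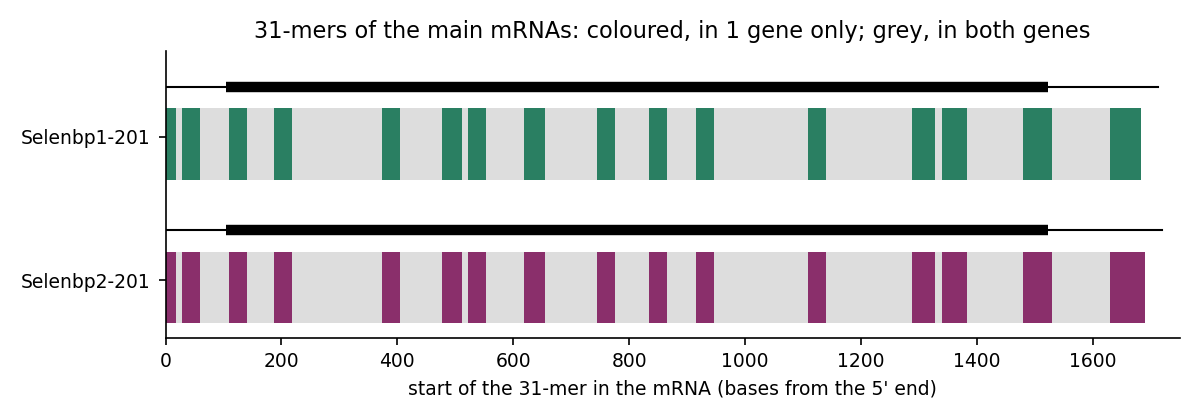
Start positions of 31-mers along the main mRNAs of Selenbp1 and Selenbp2, in bases from the 5' end. Coloured blocks are 31-mers found in that gene alone, grey blocks are 31-mers found in both genes, and the thick black line is the coding sequence. The gene-specific 31-mers, 32.8% in Selenbp1 and 33.0% in Selenbp2, were spread over the whole mRNA in separate blocks.

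Selenbp2 mRNA was lower in every SAAR mouse than in any control mouse, on either fat background. Levels are given in CPM, the gene's count relative to the TMM-scaled library size of the mouse. In RF.Ctrl the 3 mice had 1069, 825 and 1198 CPM, and in RF.SAAR they had 326, 247 and 213 CPM. In HF.Ctrl they had 1354, 1520 and 828 CPM, and in HF.SAAR they had 141, 106 and 179 CPM. The highest SAAR mouse thus had less than the lowest control mouse, and the HF.SAAR mice were all below the RF.SAAR mice. Of all genes tested, 9.71% had RF.SAAR mice all below RF.Ctrl mice, 8.98% had HF.SAAR mice all below HF.Ctrl mice and 4.68% had HF.SAAR mice all below RF.SAAR mice.

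Group means of Selenbp2 were 1031 CPM ± 189 (SD, n = 3) in RF.Ctrl, 262 CPM ± 58.0 in RF.SAAR, 1234 CPM ± 361 in HF.Ctrl and 142 CPM ± 36.4 in HF.SAAR. The log2 difference was −1.98 (SE 0.27) for RF.SAAR vs. RF.Ctrl, a level 3.93-fold lower, and −3.12 (SE 0.28) for HF.SAAR vs. HF.Ctrl, a level 8.67-fold lower. Among the 14661 genes tested, 66 had a lower log2 difference than Selenbp2 on regular fat and 7 on high fat. In bulk liver, fewer cells that express a gene and less of its mRNA per cell cannot be told apart.

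Among the restricted mice, Selenbp2 also differed between the high-fat and the regular-fat group. HF.SAAR vs. RF.SAAR differed by −0.88 (SE 0.26) on the log2 scale, a level 1.84-fold lower. HF.Ctrl vs. RF.Ctrl differed by 0.26 (SE 0.26), about the size of its error, and these groups overlapped. In order of level, HF.Ctrl and RF.Ctrl were thus not separated beyond their spread, whereas RF.SAAR and HF.SAAR each stood below the group before them. The difference between the SAAR effects on the fat backgrounds was −1.14 (SE 0.37). Per the study, the regular-fat and high-fat diets came from different suppliers. It also reported that HF.SAAR mice ate less protein and sulfur amino acids by weight than RF.SAAR mice. Fat content, supplier and the intake of sulfur amino acids cannot be told apart in these comparisons.

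Selenbp1 mRNA was far steadier between the groups. The mice had 212, 216 and 229 CPM in RF.Ctrl and 182, 219 and 161 CPM in RF.SAAR. They had 211, 215 and 227 CPM in HF.Ctrl and 243, 247 and 221 CPM in HF.SAAR. SAAR and control mice overlapped on both fat backgrounds, and so did the control groups. The HF.SAAR mice were all above the RF.SAAR mice, by a narrow margin between the closest values, as was the case for 5.47% of all genes tested.

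The log2 difference of Selenbp1 was −0.22 (SE 0.11) for RF.SAAR vs. RF.Ctrl and 0.12 (SE 0.11) for HF.SAAR vs. HF.Ctrl. It was 0.34 (SE 0.11) for HF.SAAR vs. RF.SAAR, −0.0048 (SE 0.11) for HF.Ctrl vs. RF.Ctrl and 0.34 (SE 0.16) for the difference between the SAAR effects. In both SAAR comparisons the Selenbp1 difference was smaller in size than that of Selenbp2 by well over the SE of either. The comparisons of SAAR with control within a fat level share no mice, but each of them shares a group with HF.SAAR vs. RF.SAAR or with HF.Ctrl vs. RF.Ctrl.

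**Figure D2:**
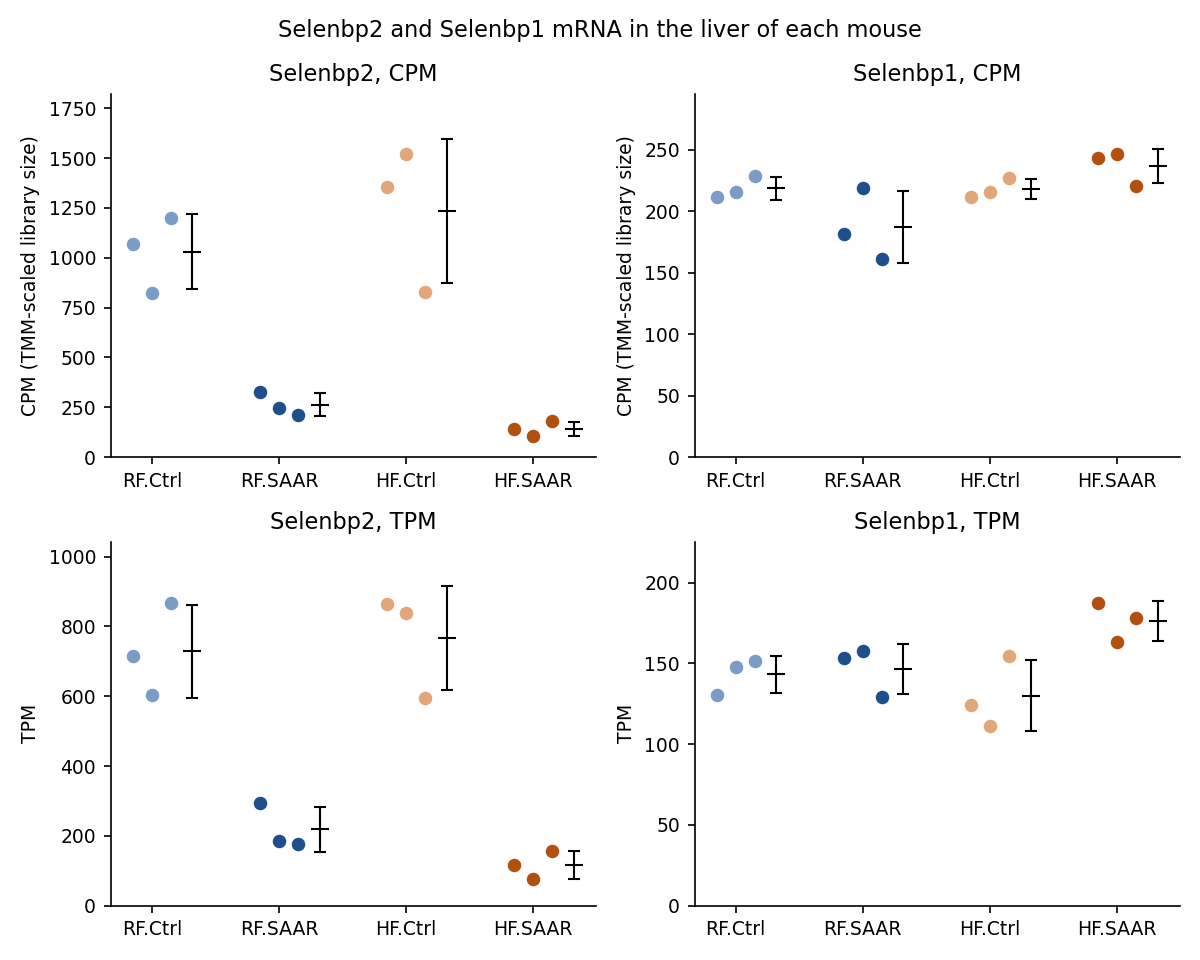
Selenbp2 (left) and Selenbp1 (right) mRNA in the liver of each mouse by diet group, in CPM (top) and TPM (bottom). Points are mice, and the black mark with bars is the mean ± SD of 3 mice. Selenbp2 lay between 825 and 1520 CPM in control mice and between 106 and 326 CPM in SAAR mice, while Selenbp1 lay between 161 and 247 CPM in all mice.

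**Figure D3:**
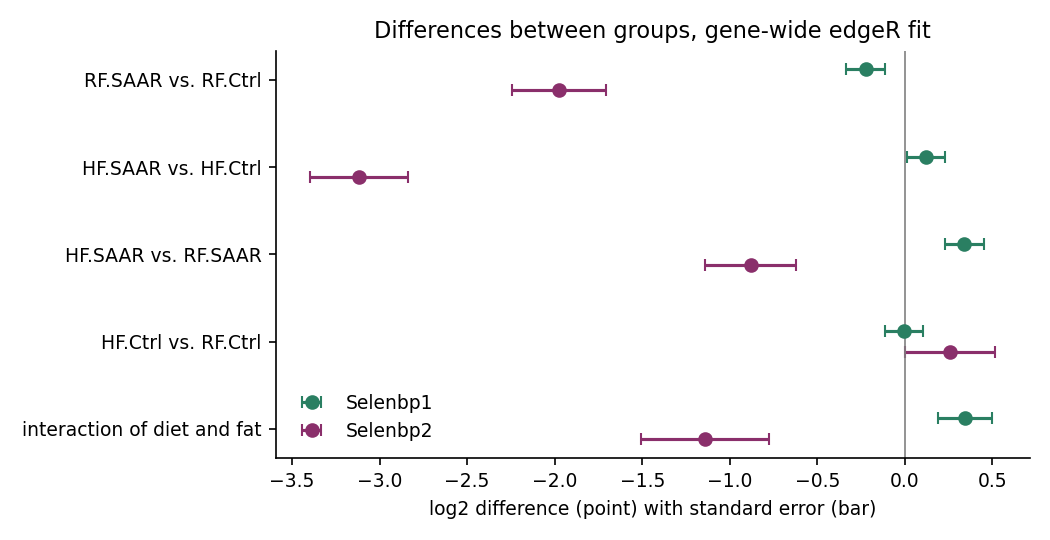
Log2 differences of Selenbp1 and Selenbp2 between groups, with standard errors as bars, from the fit over all genes and 12 mice. The interaction is the SAAR effect on high fat minus that on regular fat. Selenbp2 lay at −1.98 and −3.12 in the SAAR comparisons, whereas Selenbp1 lay at −0.22 and 0.12.

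The direction of the small Selenbp1 difference on regular fat, and the size of that on high fat, depended on the scale. In TPM, kallisto's abundance per transcript length, which carries no TMM factor, Selenbp1 was 143 TPM ± 11.4 in RF.Ctrl and 147 TPM ± 15.6 in RF.SAAR, so the sign of the regular-fat difference turned to 0.0319 on the log2(TPM + 1) scale. On high fat it was 130 TPM ± 22.2 in HF.Ctrl, from 111 to 155 TPM, and 176 TPM ± 12.4 in HF.SAAR, from 163 to 188 TPM, a difference of 0.45 on that scale, and these groups did not overlap, as was the case in TPM for 27.7% of all genes tested. The median of all genes tested also shifted on the log2(TPM + 1) scale, by 0.18 for RF.SAAR vs. RF.Ctrl and by 0.24 for HF.SAAR vs. HF.Ctrl. Selenbp2 kept its direction on this scale, with differences of −1.76 on regular fat and −2.74 on high fat.

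Because TPM is scaled by length, the paralogs can be set side by side on it. Selenbp2 had 715, 604 and 868 TPM in RF.Ctrl, 293, 186 and 177 TPM in RF.SAAR, 865, 838 and 595 TPM in HF.Ctrl, and 118, 76.7 and 157 TPM in HF.SAAR. The ratio of Selenbp2 to Selenbp1 TPM was 5.10 ± 0.893 (SD, n = 3) in RF.Ctrl and 6.11 ± 1.98 in HF.Ctrl. It was 1.49 ± 0.380 in RF.SAAR and 0.660 ± 0.208 in HF.SAAR. Selenbp2 was thus the more abundant paralog in all mice of RF.Ctrl, RF.SAAR and HF.Ctrl, and Selenbp1 was the more abundant one in all 3 HF.SAAR mice, whose ratios were 0.628, 0.470 and 0.882. This ratio is taken within a mouse and does not change with the scaling between mice.

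The share of Selenbp1 in the summed TPM of the pair was 16.7% ± 2.65 in RF.Ctrl, 15.0% ± 4.91 in HF.Ctrl, 40.8% ± 5.89 in RF.SAAR and 60.9% ± 7.47 in HF.SAAR. The sum itself does not depend on how reads were divided between the paralogs when counts are used. It was 1250 CPM ± 195 in RF.Ctrl, 449 CPM ± 68.5 in RF.SAAR, 1452 CPM ± 354 in HF.Ctrl and 379 CPM ± 24.0 in HF.SAAR. As 1 unit the pair differed by −1.48 (SE 0.18) on the log2 scale for RF.SAAR vs. RF.Ctrl and by −1.94 (SE 0.18) for HF.SAAR vs. HF.Ctrl. For HF.SAAR vs. RF.SAAR the summed difference was −0.24 (SE 0.17).

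Among all genes ordered by TPM within a mouse, with the most abundant first, Selenbp2 ranked between 103 and 170 in control mice. It ranked between 385 and 600 in RF.SAAR and between 722 and 1149 in HF.SAAR. Selenbp1 ranked between 582 and 772 over all mice. Selenbp2 ranked behind Selenbp1 in each HF.SAAR mouse and before it in each other mouse.

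The annotation lists 5 Selenbp1 transcripts and 7 Selenbp2 transcripts, of which 2 and 5 reached 1 TPM in at least 1 mouse. Selenbp1-201, the full coding mRNA, held 98.2% to 99.8% of the gene's estimated counts. Selenbp2-201 held 83.7% to 93.1%. The next transcript of Selenbp2 was Selenbp2-203, which keeps intron 4 of the main mRNA, 552 bases at chr3:94697491-94698042.

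Selenbp2-203 took 14.0%, 11.1% and 13.9% of the Selenbp2 counts in RF.Ctrl and 10.1%, 4.59% and 5.74% in RF.SAAR. In HF.Ctrl it took 13.2%, 10.9% and 8.40%, and in HF.SAAR 11.1%, 13.4% and 14.1%. The share was below that of RF.Ctrl in all 3 RF.SAAR mice, as it was for 4.62% of 44679 transcripts that held between 1% and 99% of the counts of a tested gene on average, while the high-fat groups overlapped and HF.SAAR had the higher mean (12.9% ± 1.58 against 10.9% ± 2.42). The corresponding transcript of Selenbp1, Selenbp1-203, keeps the matching intron of 561 bases and took 0.227% to 1.75% of Selenbp1 counts. Selenbp2-204, a shorter coding transcript, took 0.458% to 2.79% of Selenbp2 counts, and Selenbp2-202 and Selenbp2-205 took at most 0.0303% and 0.248%.

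**Figure D4:**
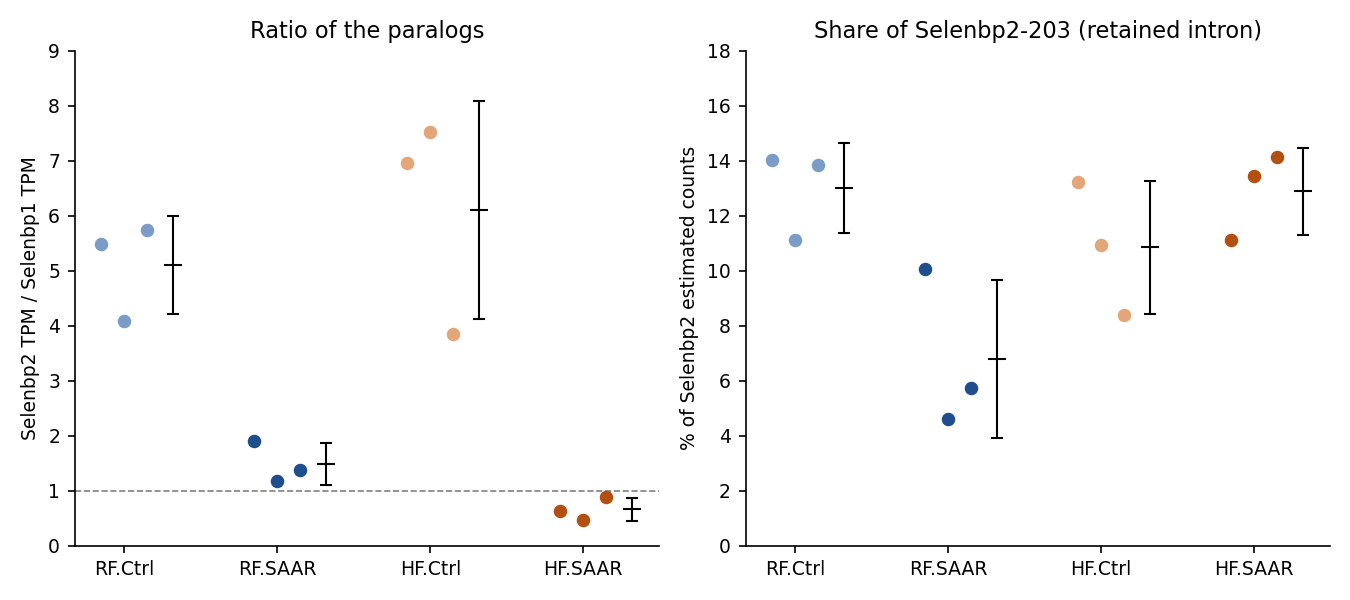
Ratio of Selenbp2 to Selenbp1 TPM in each mouse (left, dashed line at 1) and share of Selenbp2 estimated counts, in percent, on the transcript with a retained intron (right), by diet group. Points are mice, and the black mark with bars is the mean ± SD of 3 mice. The ratio was above 1 in 9 mice and below 1 in the 3 HF.SAAR mice, and the share was lowest in RF.SAAR, at 6.80% ± 2.88.

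The livers carried hepatocyte markers, such as albumin and transthyretin, with a summed level of 77675 to 96449 CPM for 6 genes and none at 0. Their sums overlapped between SAAR and control mice on both fat backgrounds. With the TMM factor, the median log2 difference of the 6 genes was −0.23 on regular fat, where all 6 were negative. On high fat it was −0.11, with 4 negative and 2 positive. Unlike the gene levels above, all marker sums are relative to the total matched counts of the mouse, without the TMM factor. Total estimated counts were 16203094 to 21230092 per mouse. Markers of pancreatic acinar cells, 12 genes with none at 0 in a mouse, had a summed level of 60.7 to 1076 CPM in RF.Ctrl and of 40.4 to 76.3 CPM in RF.SAAR, and of 56.9 to 4391 CPM in HF.Ctrl and of 61.6 to 14995 CPM in HF.SAAR. They exceeded 1000 CPM in 5 mice (RF.Ctrl replicate 1, HF.Ctrl replicates 1 and 2, HF.SAAR replicates 2 and 3). Without these 5 mice, which leaves 1 mouse in each high-fat group, Selenbp2 differed by −1.95 (SE 0.22) for RF.SAAR vs. RF.Ctrl and by −2.57 (SE 0.36) for HF.SAAR vs. HF.Ctrl. The difference between the SAAR effects was then −0.62 (SE 0.40) in place of −1.14, and HF.Ctrl vs. RF.Ctrl was −0.28 (SE 0.29) in place of 0.26. The HF.Ctrl mouse that stayed was the one with the lowest Selenbp2. Selenbp1 then differed by −0.25 (SE 0.15) on regular fat and by 0.08 (SE 0.23) on high fat. With 1 mouse in each high-fat group, these SEs rest on the regular-fat mice and assume that the lone high-fat mice vary like them.

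Markers of other cells were summed on the same scale, without the TMM factor, and differed between some groups of mice. Erythroid markers (3 genes) had a summed level of 404 to 464 CPM in RF.Ctrl and 247 to 289 CPM in RF.SAAR, while HF.Ctrl, at 283 to 323 CPM, and HF.SAAR, at 192 to 375 CPM, overlapped. Endothelial markers (5 genes) had 195 to 228 CPM in RF.Ctrl and 239 to 246 CPM in RF.SAAR, and 185 to 226 CPM in HF.Ctrl and 208 to 248 CPM in HF.SAAR. Kupffer cell markers (6 genes) had 242 to 307 CPM in RF.Ctrl and 256 to 311 CPM in RF.SAAR, and 196 to 255 CPM in HF.Ctrl and 268 to 355 CPM in HF.SAAR. No gene of these lists was at 0 in a mouse, and their part in the Selenbp2 differences was not tested. On this scale erythroid and endothelial markers separated the regular-fat groups and Kupffer markers the high-fat groups. The summed stellate, cholangiocyte, adipocyte and skeletal muscle markers overlapped between SAAR and control mice on both backgrounds. The left-out TMM factor was 0.945 to 0.979 in RF.Ctrl and 1.04 to 1.11 in RF.SAAR. In HF.Ctrl it was 0.863 to 0.998 and in HF.SAAR 0.980 to 1.08. Separation or overlap on this scale therefore need not hold with that factor. Divided by it, the endothelial groups on regular fat and the Kupffer groups on high fat overlapped. The erythroid groups on regular fat stayed apart. Cholangiocyte markers then lay lower in all HF.SAAR mice than in any HF.Ctrl mouse, and on regular fat their closest values were about equal. In TPM, which also carries no TMM factor, 27.7% of all genes tested had HF.SAAR mice all above HF.Ctrl mice. With the TMM factor, 9.71% of them had RF.SAAR mice all below RF.Ctrl mice and 8.98% had HF.SAAR mice all below HF.Ctrl mice. No share is given for the marker scale itself or for RF.SAAR mice all above RF.Ctrl mice. The separations of markers on that scale thus have no matching share of all genes beside them.

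Genes that make, methylate or oxidize the substrate and products of methanethiol oxidase were compared next, with edgeR's quasi-likelihood test and Benjamini-Hochberg adjustment over all 14661 genes. At an adjusted p under 0.05, RF.SAAR vs. RF.Ctrl called 1.49% of all genes (0.600% higher, 0.887% lower) and HF.SAAR vs. HF.Ctrl called 1.97% (1.01% higher, 0.962% lower). An unadjusted p under 0.05 was found for 13.5% of all genes on regular fat and 12.4% on high fat. These p-values set a difference between group means against the spread of mice within groups, estimated over all 4 groups. The lists of genes were written with earlier results of these mice known. Of the calls on regular fat named for the lists, those of Hsd3b2 and C6 were kept without the 5 mice with high pancreatic markers, and the others were lost with the same sign. On high fat that leaves 1 mouse against 1, so the calls there were not judged by it.

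Of 22 genes of methanethiol and hydrogen sulfide metabolism 20 were tested. On regular fat edgeR called 0 of them, with 4 of the 20 at an unadjusted p under 0.05 beside 13.5% of all genes, while DESeq2 called 1 higher and 1 lower. On high fat edgeR called 1 higher and 0 lower, with 4 of the 20 at an unadjusted p under 0.05 beside 12.4% of all genes, while DESeq2 called 3 higher and 0 lower. The gene that rose by edgeR was Mat1a, the liver enzyme that makes S-adenosylmethionine from methionine, at 1860 CPM ± 19.9 in HF.Ctrl and 3430 CPM ± 321 in HF.SAAR (log2 difference 0.88, SE 0.12, adjusted p 0.00149). The median log2 difference of the list was −0.15 on regular fat and −0.0079 on high fat, against −0.0014 on each for all genes tested. Sqor, the mitochondrial enzyme that oxidizes hydrogen sulfide, had −0.23 (SE 0.11) on regular fat and 0.06 (SE 0.11) on high fat and was not called.

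For the other products of the enzyme, formaldehyde and hydrogen peroxide, all 18 listed genes were tested. Aldh1l2, a mitochondrial folate enzyme, rose on both backgrounds, by 2.18 (SE 0.39, adjusted p 0.0138) on regular fat and by 1.77 (SE 0.38, adjusted p 0.0300) on high fat on the log2 scale, from levels near 1 CPM in control mice. Catalase (Cat), which breaks down hydrogen peroxide, fell on high fat by 0.36 (SE 0.08, adjusted p 0.0330), from 2446 CPM ± 100.1 to 1905 CPM ± 147. By edgeR the other genes of this list were not called, 17 on regular fat and 16 on high fat. DESeq2 called 2 higher and 1 lower on regular fat and 1 higher and 1 lower on high fat, and with library size as the only scaling edgeR called 2 on regular fat and 5 on high fat. At an unadjusted p under 0.05 were 7 and 6 of the 18, beside 13.5% and 12.4% of all genes. The call of Aldh1l2 on regular fat was lost without RF.Ctrl replicate 1 or 3 or RF.SAAR replicate 3 (adjusted p 0.0512 to 0.0582), and on high fat without HF.Ctrl replicate 1 or 3 or any HF.SAAR mouse (0.0670 to 0.117). The call of Cat was lost without HF.Ctrl replicate 1 or 3, HF.SAAR replicate 2 or 3 or RF.Ctrl replicate 2 (0.0537 to 0.153).

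Selenoproteins and genes of selenium handling had 29 of 33 members tested. On regular fat 1 fell, Selenoo, a mitochondrial selenoprotein (log2 difference −0.50, SE 0.11, adjusted p 0.0488). On high fat 1 fell, Dio1, a deiodinase of thyroid hormone (−0.76, SE 0.17, adjusted p 0.0398). None rose on either background by this test, 6 and 7 of the 29 had an unadjusted p under 0.05 in either direction beside 13.5% and 12.4% of all genes, and DESeq2 called 1 higher on regular fat and 0 higher on high fat. The call of Selenoo was lost without any single mouse other than RF.SAAR replicate 2 or HF.Ctrl replicate 3 (adjusted p 0.0619 to 0.205). That of Dio1 was lost without any single high-fat mouse, RF.SAAR replicate 2 or RF.Ctrl replicate 3 (0.0518 to 0.166). The median of the list was 0.02 and 0.01. Selenop, the plasma carrier of selenium, had 0.12 (SE 0.08) and 0.10 (SE 0.08) and was not called.

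The list of male-biased liver genes held 25 genes without Selenbp2, all tested. On regular fat 9 fell and 0 rose, and on high fat 12 fell and 0 rose, that is, 9 and 12 of 25 beside 0.887% and 0.962% of all genes called lower. DESeq2 called 11 and 17 lower and 0 higher, and 16 and 20 of the 25 genes had an unadjusted p under 0.05 in the edgeR fit beside 13.5% and 12.4% of all genes. The median log2 difference was −0.65 on regular fat and −1.22 on high fat. This list was written after the direction of such genes in these mice was known, so its counts are not independent evidence. By the smallest p, the calls on regular fat were led by Hsd3b2 (−1.16, SE 0.13, adjusted p 0.00146), a steroid dehydrogenase, and by C6 (−1.09, SE 0.14, adjusted p 0.00200), a terminal complement component. C8b and Cyp2d9 followed with −0.73 (SE 0.13) and −0.65 (SE 0.12), and both lost their call without RF.Ctrl replicate 1 (adjusted p 0.0552 and 0.0591), C8b also without RF.Ctrl replicate 3 (0.0529). On high fat the leading calls were C6 (−1.76, SE 0.14), Hsd3b2 (−1.22, SE 0.13), Cyp2d9 (−0.996, SE 0.117) and Mup21 (−2.54, SE 0.30), a major urinary protein, with adjusted p from 1.99e-05 to 0.00166. On regular fat the count of calls dropped to between 3 and 5 without any single RF mouse other than RF.SAAR replicate 3, and without the 5 mice with high pancreatic markers 4 were called on regular fat and 1 on high fat. Mup, Hsd3b and Cyp2d genes have close paralogs, so their counts also rest on how reads were divided.

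**Figure D5:**
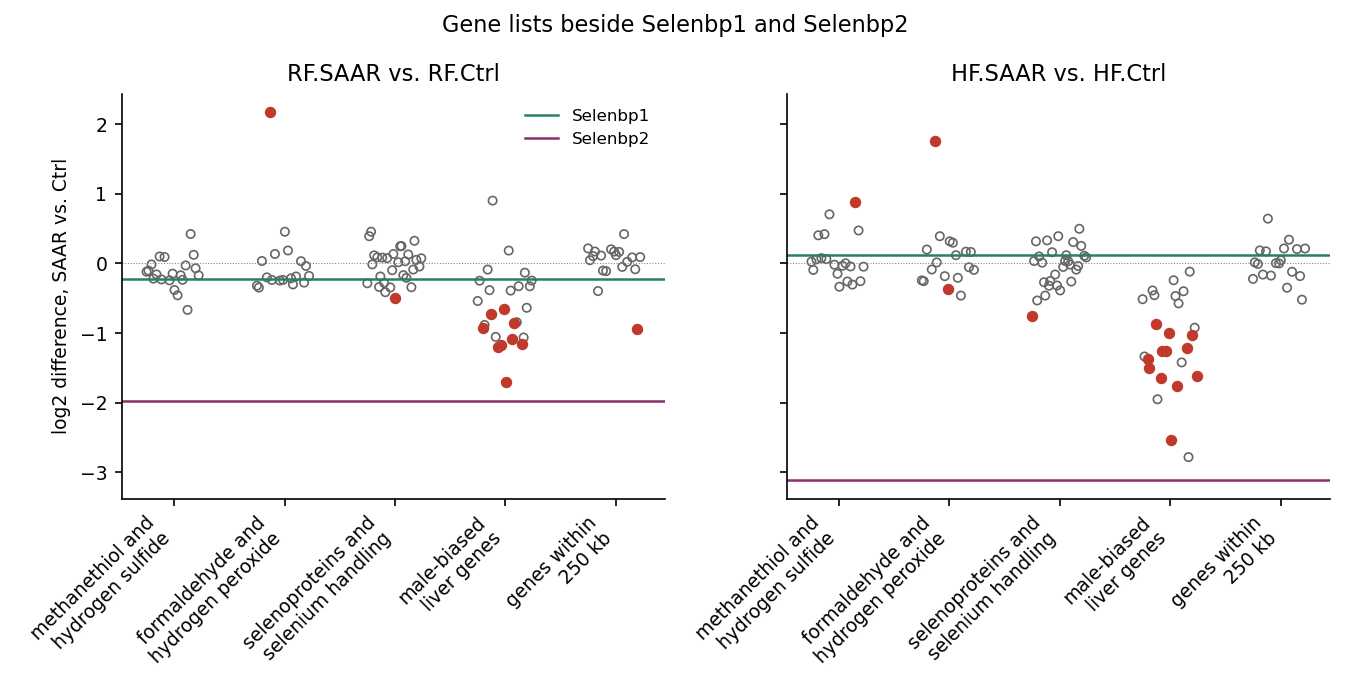
Log2 differences between SAAR and control mice on regular fat (left) and high fat (right) for the genes of 5 lists. Points are genes, filled red where the adjusted p was under 0.05, and the horizontal lines are Selenbp1 and Selenbp2. The Selenbp2 lines at −1.98 and −3.12 lay below every listed gene, and the male-biased list was the one with the most calls, 9 and 12.

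Genes whose log2 CPM over the 12 mice, centred on their own mean, came closest to each paralog were found by the root mean squared (RMS) difference. For Selenbp2 they were Mup21 (RMS 0.51), the carboxylesterase Ces4a (0.51), the guanylate-binding protein Gbp11 (0.58), the serpin Serpina9 (0.65) and C6 (0.66), against a median of 1.37 over all genes. Mup21 had −1.71 (SE 0.29) on regular fat and −2.54 (SE 0.30) on high fat, and Ces4a, near 1 CPM, had −1.30 (SE 0.43) and −2.54 (SE 0.44). For Selenbp1 they were Bcat2 (RMS 0.05), an aminotransferase of branched-chain amino acids, Sqor (0.06), Fah (0.08) of tyrosine degradation, Pigs (0.09) and Ttc38 (0.09), against a median of 0.29. The paralogs differed from each other by an RMS of 1.36. The RMS of each paralog from its own mean was 1.34 for Selenbp2 and 0.16 for Selenbp1. A gene that is flat over the mice therefore lies about 1.34 from Selenbp2 and about 0.16 from Selenbp1. The medians and the distance between the paralogs thus follow largely from these spreads and do not show how the paralogs relate.

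Protein-coding genes within 250 kb of either paralog were listed too, 22 in all and 19 of them tested. On regular fat 1 of them fell, Tuft1 (log2 difference −0.94, SE 0.17, adjusted p 0.0141), at 13.0 CPM ± 2.81 in RF.Ctrl and 6.75 CPM ± 0.762 in RF.SAAR. This call was lost without RF.Ctrl replicate 1 or 2 or RF.SAAR replicate 3 (adjusted p 0.0596 to 0.0712). On high fat 0 were called by edgeR, with 1 at an unadjusted p under 0.05, and DESeq2 called 0. Tuft1 then had −0.52 (SE 0.17, adjusted p 0.165). The other 18 neighbours were not called in either comparison.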

How the data were processed

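Polyadenylated liver RNA of 12 mice was sequenced as read pairs of 150 bases. Per the labels and the study's methods, adapters were removed with cutadapt, and kallisto then quantified Ensembl mouse transcripts in each mouse. For every transcript the authors deposited an estimated count of read pairs, in which ambiguous reads are divided by likelihood, an effective length in bases, and TPM, the estimated count per effective length on a scale with equal totals. No replicates were pooled and no filter was applied.

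Of 118489 transcripts, 116728 were matched to GENCODE M21 (GRCm38), and the unmatched ones held 1.09% of counts and were left out. Counts were summed per gene, rounded, and fitted in R 4.3.3 with edgeR 4.0.16 (TMM, filterByExpr, robust quasi-likelihood fit of the 4 group means over all 12 mice, Benjamini-Hochberg adjustment over 14661 genes). The SE is the size of the log2 difference divided by the square root of F. Log2 CPM used a prior count of 2, and log2 TPM a pseudocount of 1. DESeq2 1.42.0 was an alternative. The fit was also run on simulated counts with the same spread for every gene, no outlying mice and changes in RF.SAAR alone. That run therefore does not show how the fit handles the uneven spread or the pancreatic markers of these mice.

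The 31-mers were compared over all matched transcripts, and proteins were compared as translations of the annotated coding sequences. Mice were grouped by diet label and numbered in accession order within a group. Errors come from the spread between mice, since estimated counts are not independent molecules. The members and gene lists were chosen with earlier results of these data known. Named were the paralogs, their transcripts reaching 1 TPM, the 5 genes with the nearest profile to each, and the called genes of each list, up to 4 per comparison by p. Marker lists of 9 cell types were also summed, in CPM of the total matched counts without the TMM factor.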

Additional observations from a re-analysis of the deposited data

How the results depend on the processing

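No paired analysis was possible because the labels give no replicate numbers. Selenbp2 kept its direction in both SAAR comparisons and in HF.SAAR vs. RF.SAAR under every alternative run. Leaving out each mouse in turn gave −2.16 to −1.85 for RF.SAAR vs. RF.Ctrl, −3.34 to −2.94 for HF.SAAR vs. HF.Ctrl, −1.08 to −0.69 for HF.SAAR vs. RF.SAAR, 0.08 to 0.48 for HF.Ctrl vs. RF.Ctrl and −1.36 to −0.95 for the interaction. For Selenbp1 the ranges were −0.35 to −0.13, 0.08 to 0.17, 0.24 to 0.47, −0.04 to 0.03 and 0.25 to 0.47. Without the 5 mice above 1000 CPM of pancreatic markers, Selenbp2 gave −2.57 on high fat, −0.28 for HF.Ctrl vs. RF.Ctrl and −0.62 for the interaction. Scaling by library size alone shifted the median of all genes by 0.16 on regular fat and 0.17 on high fat and gave Selenbp1 0.28 on high fat. On the log2(TPM + 1) scale Selenbp1 gave 0.0319 on regular fat, 0.45 on high fat and −0.15 for HF.Ctrl vs. RF.Ctrl. Summed with Selenbp2, it took the values of the pair, −1.48, −1.94, −0.24, 0.22 and −0.46 (interaction), by construction.

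Genes called numbered 218 (88 higher, 130 lower) on regular fat and 289 (148 higher, 141 lower) on high fat. They numbered 425 (359 and 66) and 718 (638 and 80) with library size alone, 591 (262 and 329) and 594 (316 and 278) with DESeq2, and 81 (25 and 56) and 6 (5 and 1) without the 5 mice, a design with fewer samples and 1 mouse in each high-fat group, whose spread is assumed to be that of the regular-fat mice. With only the groups compared, 190 were called on high fat. Leaving out single mice gave 92 (RF.Ctrl replicate 3) to 244 and 110 (HF.Ctrl replicate 1) to 310. In the lists, calls on regular fat and on high fat became, in this order, 1 and 3 (library size), 2 and 3 (DESeq2), with 0 on high fat without the 5 mice, for methanethiol and hydrogen sulfide. For formaldehyde and hydrogen peroxide they became 2 and 5 (library size), 0 and 1 (offsets for effective length), 0 and 0 (without the 5 mice), 3 on regular fat (DESeq2) and 0 on high fat (groups compared). For selenoproteins they became 2 and 2 (library size and DESeq2) and 0 and 0 (without the 5 mice), and 0 on regular fat with RLE factors, with offsets for effective length and with the groups compared. Male-biased genes gave 4 and 1 and the neighbours 0 on regular fat without the 5 mice. Over single mice left out, calls ranged from 0 to 1 and 1 to 1 (methanethiol), 0 to 1 and 0 to 2 (formaldehyde), 0 to 1 and 0 to 1 (selenoproteins), 3 to 9 and 8 to 13 (male-biased) and 0 to 1 and 0 to 0 (neighbours). Among the named genes, Cat, Selenoo and Dio1 lost their call with library size alone, Aldh1l2 and Selenoo with offsets for effective length, Selenoo with RLE factors, and Aldh1l2 on high fat, Cat and Selenoo with only the groups compared. The cause of these changes was not tested. With 3 mice a group, small differences such as those of Selenbp1 were near the limit of what these data resolve.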
